A study of Mus musculus with 18 samples.

Results

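Genes that mark the interneurons of the mouse retina were examined in whole retinas taken 3 days after optic nerve crush. The members were 34 genes, 11 for bipolar cells, 17 for amacrine cells and 6 for horizontal cells, out of 20144 gene symbols on the array. They were chosen by name, as all probes whose RefSeq accession maps to a listed marker symbol, which gave 48 probes. The choice was made with earlier results of these data known. Of the 34 genes, 32 passed the filter on dim probes. Ptf1a, a factor that specifies amacrine and horizontal cells in development, and Onecut1, a horizontal cell factor, had Cy5 signal well above background on 0 of 17 arrays, so only a bound is known for them and neither was tested.

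The study asked what the kinase DLK (gene Map3k12) does after optic nerve injury. All mice carried loxP-flanked DLK alleles (DLKlox/lox) and had received tamoxifen at 10 to 12 weeks of age. The Cre-positive mice also carried Cre-ERT, a tamoxifen-activated recombinase under the CAG promoter, and the Cre-negative mice were their littermates without it. The groups were Cre-positive crushed (5 arrays), Cre-positive uncrushed (5), Cre-negative crushed (3) and Cre-negative uncrushed (4), the uninjured eye being the control.

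CAG is active in many tissues, so recombination was not restricted to a cell type, and per the labels a small, varying amount of DLK protein remained. Each array set the Cy5-labelled RNA of a retina against a Cy3-labelled universal mouse reference RNA. Values are log2 ratios of retina over reference, so 0 means equal signal and 1 means a doubling. Nothing in the labels says whether the arrays of a group came from separate animals, and p-values therefore measure the spread between these samples. The labels also do not say which crushed and uncrushed retinas share an animal, so the tests ignore any such pairing. Crushed retinas lay at even and uncrushed retinas at odd array positions on the slides, so crush and position parity cannot be told apart. Slide 1 held only Cre-positive and slide 5 only Cre-negative retinas, so genotype and slide are partly confounded. In whole retina, fewer cells of a type and less RNA per cell cannot be told apart either.

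Bipolar cells carry signals from photoreceptors to the inner retina. Amacrine cells shape that signal in the inner plexiform layer, mostly with GABA or glycine, and horizontal cells feed back onto photoreceptors in the outer retina. The optic nerve holds the axons of retinal ganglion cells, so crush severs ganglion cell axons and cuts none of the processes of these interneurons.

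The arrays were of even quality. The share of probes with Cy5 above background by the scanner's own flag was 68.0 to 76.2%, with a median Cy5 intensity of 240 to 297 and 0 saturated spots. Map3k12 averaged 2.02 ± 0.18 in Cre-positive retinas (SD, n = 10) and 2.46 ± 0.16 in Cre-negative retinas (SD, n = 7). Averaged over crushed and uncrushed retinas the difference was -0.45 by limma (adjusted p = 0.0078). In neither condition alone did it pass, at -0.43 between uncrushed (adjusted p = 0.88) and -0.47 between crushed retinas (adjusted p = 0.061). Cre-positive uncrushed replicate 4 was rich in cornea genes and Cre-positive crushed replicate 5 in lens genes, with list means of 0.83 and 1.69. Leaving both out changed none of the counts of called members given below.

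Most of the interneuron genes stood far above the reference RNA. In Cre-negative uncrushed retinas 27 of the 32 had a mean log2 ratio above 1, against 21% of all 25374 genes tested, whose median was 0.08. Those 25374 comprise 16793 genes with a symbol and 8581 single probes without one. The 3 classes differed in how far they stood above the reference. All 11 bipolar genes exceeded 1, with a median of 3.83, as did 14 of 16 amacrine genes, with a median of 2.55, and 2 of 5 horizontal genes, with a median of 0.56. A ratio depends on what the reference holds as well as on the retina, so these levels do not rank the transcripts by abundance. The reference signal was well above background on all 17 arrays for 20 of the 32. It was so on fewer than 3 arrays for 6 of them (Bhlhe23, Tfap2b, Slc5a7, Slc18a2, Calb1 and Prox1), whose ratios are limited by the dim Cy3 signal.

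**Figure D1:**
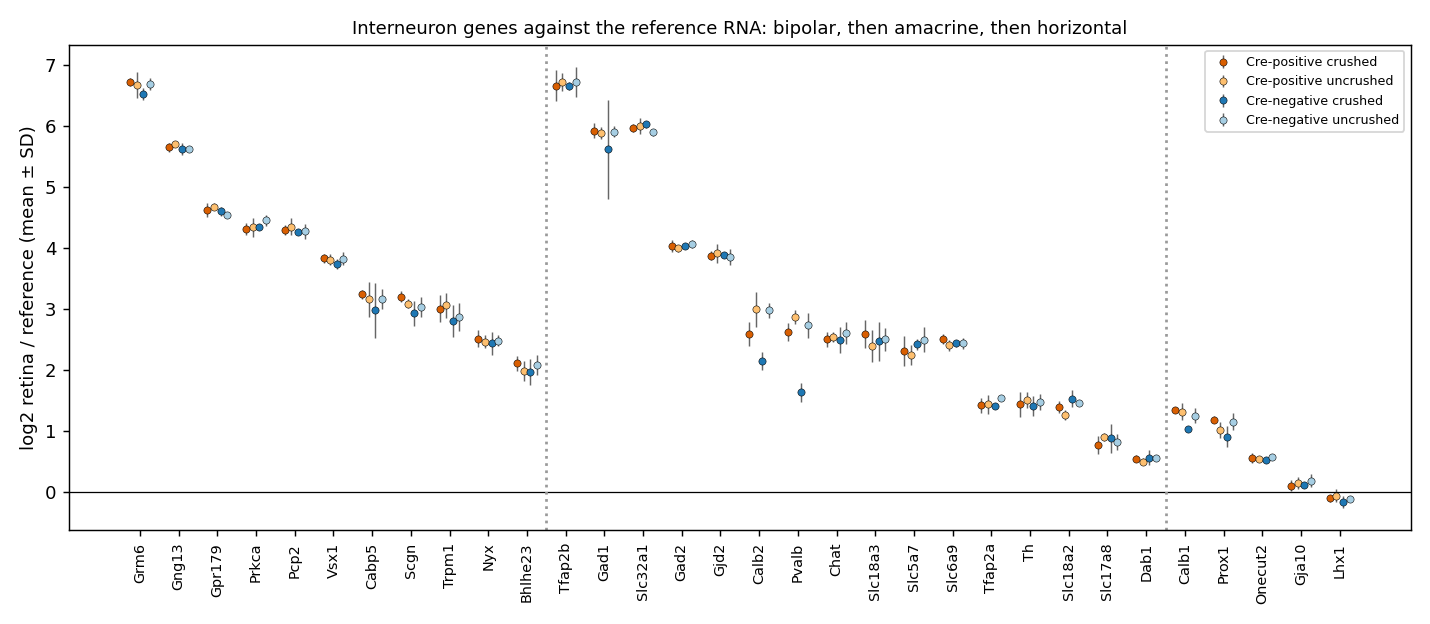
Mean log2 ratio of retina over reference RNA (vertical axis) for the 32 interneuron genes that passed the filter, with SD over 5 Cre-positive crushed, 5 Cre-positive uncrushed, 3 Cre-negative crushed and 4 Cre-negative uncrushed arrays; dotted lines separate bipolar, amacrine and horizontal genes. Bipolar genes lie between 1.96 and 6.72 in all groups, horizontal genes lie at or below 1.34, and Pvalb and Calb2 are lowest in Cre-negative crushed retinas.

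Bipolar genes showed no change that passed the test. Of the 11 genes, 0 passed (limma, Benjamini-Hochberg adjusted p under 0.05) in any of the 7 contrasts, in which 0.0118 to 3.55% of all genes did. At an unadjusted p under 0.05 there were 0 after crush in either genotype, and at most 2 in any contrast. Of all 25374 genes tested, 2423 in Cre-positive and 3392 in Cre-negative retinas had such a p after crush. The bipolar genes cover the pathway by which ON bipolar cells read glutamate as well as markers of single types. Grm6, the metabotropic glutamate receptor at the start of that pathway, averaged 6.72 ± 0.07 in Cre-positive crushed and 6.67 ± 0.21 in Cre-positive uncrushed retinas (SD, n = 5 each). It averaged 6.52 ± 0.10 in Cre-negative crushed (n = 3) and 6.69 ± 0.10 in Cre-negative uncrushed retinas (n = 4). These group means lie within 0.20 of each other, on a gene about 103-fold above the reference in uncrushed Cre-negative retinas.

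Gng13, a G protein gamma subunit of ON bipolar cells, ranged from 5.52 to 5.78 over the 17 arrays. Gpr179, an orphan receptor at the dendritic tips, ranged from 4.49 to 4.82, and Nyx, which codes for the dendritic protein nyctalopin, from 2.21 to 2.67. Trpm1, the cation channel that the pathway opens, ranged from 2.52 to 3.33. The crush change of Gng13 was -0.06 in Cre-positive and 0.01 in Cre-negative retinas, and that of Trpm1 was -0.05 in Cre-positive and -0.07 in Cre-negative retinas. These Trpm1 values are of its brightest probe. Over its 3 probes the change was -0.05 to 0.32 in Cre-positive and -0.18 to -0.07 in Cre-negative retinas, and no probe passed.

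Markers of bipolar subtypes lay in similarly narrow ranges. Prkca, the protein kinase C isoform of rod bipolar cells, ranged from 4.16 to 4.56. Pcp2, a modulator of G proteins in rod bipolar and some cone bipolar cells, ranged from 4.17 to 4.57, and Vsx1, a homeodomain factor of cone bipolar cells, from 3.64 to 3.95. Bhlhe23, a basic helix-loop-helix factor needed for rod bipolar cells, ranged from 1.74 to 2.30. It had the largest bipolar change with crush in Cre-positive retinas, 0.13 ± 0.09 (SE, adjusted p = 0.70 by limma). Scgn, the calcium sensor secretagogin of cone bipolar cells, ranged from 2.69 to 3.31.

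The largest bipolar change with crush in Cre-negative retinas was that of Cabp5, a calcium-binding protein of rod and cone bipolar cells. Cabp5 read 3.37, 3.19, 3.22, 3.25 and 3.16 in Cre-positive crushed retinas and 3.59, 3.29, 2.98, 2.88 and 3.03 in Cre-positive uncrushed retinas. It read 2.91, 2.56 and 3.46 in Cre-negative crushed retinas and 2.96, 3.25, 3.08 and 3.33 in Cre-negative uncrushed retinas. Groups overlapped throughout, and the Cre-negative crushed arrays held both a low and a high value. The change was -0.18 ± 0.17 in Cre-negative (SE, adjusted p = 0.73) and 0.08 ± 0.14 in Cre-positive retinas (adjusted p = 0.89).

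The bipolar intervals bound what could have been missed at the brightest probe of each gene, and other probes of a gene can differ. In Cre-negative retinas 10 of 11 bipolar genes had a 95% interval of the crush change within 0.5 log2 of 0, against 92% of all genes tested, and in Cre-positive retinas 11 of 11 had, against 96.2%. Only Cabp5, with an interval of -0.54 to 0.19, reached further in Cre-negative retinas. The signs of the small differences were not evenly spread. After crush 9 of 11 bipolar changes were below 0 in Cre-negative retinas, against 49.4% of all genes, and 5 of 11 in Cre-positive retinas, against 49.9%. Between crushed retinas 10 of 11 were above 0 in Cre-positive over Cre-negative, against 53.2% of all genes. The members come from the same arrays and the signs were not tested. The largest of those Cre-positive over Cre-negative differences was that of Scgn, 0.27 ± 0.09 (SE, adjusted p = 0.17), and Trpm1 gave 0.11 to 0.74 over its 3 probes (lowest adjusted p = 0.24).

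A second set of 19 bipolar genes, among them G protein subunits of the ON pathway, was also measured. Of 18 tested, 0 passed in any contrast, and 0 to 3 had an unadjusted p under 0.05. Their median change with crush was 0.00 in Cre-positive and -0.03 in Cre-negative retinas. Over the contrasts 1418 to 3567 of all 25374 genes tested met the unadjusted threshold.

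The promoters of the bipolar genes were searched for short motifs, because bipolar factors such as OTX2 and CRX recognise the letters TAATCC. The stretch searched was the 250 bases before each start in RefSeq's annotation of GRCm38.p6, on both strands, and 31 of 34 members had an entry. The 31 members have 43 promoters there. TAATCC occurred in 6.25% of 32851 promoters and in 4 of these 43, those of the bipolar genes Cabp5 and Trpm1 and the amacrine genes Gad1 and Gjd2. TAATTA, a homeodomain motif, occurred in 4.84% of promoters and in 3 of the 43, those of Pcp2, Slc17a8 and Tfap2a. TGANTCA, the AP-1 motif, occurred in 6.75% of promoters and in 2 of the 43, those of Scgn and Th. Matches are descriptions of letters and were not tested as binding sites.

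The 2 bipolar promoters with the motif are shown because Cabp5 had the largest bipolar change in Cre-negative retinas and Trpm1 is the channel of the ON pathway. Capitals mark TAATCC or its reverse complement. That of Cabp5 lies at chr7:13397905-13398154 on the plus strand, with the motif starting 160 and 41 bases before the start. That of Trpm1 lies at chr7:64153585-64153834 on the plus strand, with the motif on the other strand 34 bases before the start.
Cabp5: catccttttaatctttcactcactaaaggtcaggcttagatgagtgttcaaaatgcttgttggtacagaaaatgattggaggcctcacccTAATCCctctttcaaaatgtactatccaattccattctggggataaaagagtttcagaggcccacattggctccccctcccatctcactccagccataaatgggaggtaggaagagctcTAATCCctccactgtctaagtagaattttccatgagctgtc
Trpm1: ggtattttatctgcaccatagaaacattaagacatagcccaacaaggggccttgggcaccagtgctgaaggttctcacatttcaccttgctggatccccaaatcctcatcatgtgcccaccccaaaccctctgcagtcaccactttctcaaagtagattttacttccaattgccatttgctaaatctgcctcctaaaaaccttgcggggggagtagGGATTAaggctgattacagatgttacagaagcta

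The changes after crush that passed were in genes of the amacrine list. After crush in Cre-negative retinas 2 of 16 amacrine genes, Pvalb and Calb2, fell, while the other 14 did not pass the test. These were also 2 of all 32 members, where 0.804% of all genes tested fell and 2.15% passed in either direction. In Cre-positive retinas 0 of 32 members passed the test after crush, where 0.769% of all genes did. An unadjusted p under 0.05 was found there for 3 of the 32 members and for 2423 of all 25374 genes tested. The difference between the crush responses passed for 1 of 32, Pvalb, where 0.418% of all genes did.

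**Figure D2:**
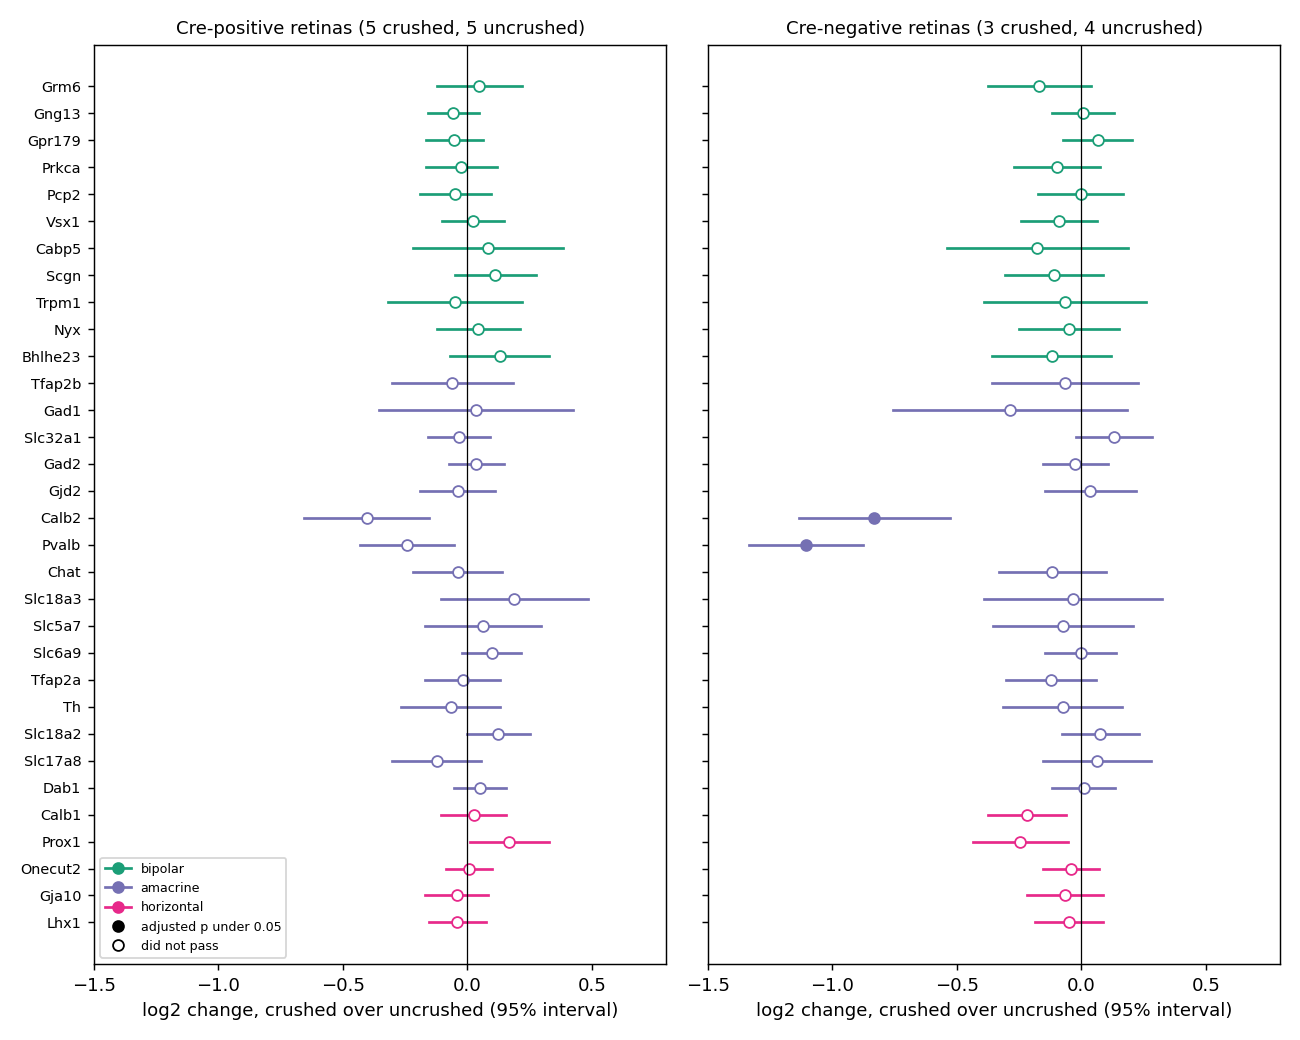
Log2 change of crushed over uncrushed retinas with its 95% interval (horizontal axis) for the 32 interneuron genes, in Cre-positive retinas on the left and Cre-negative retinas on the right; filled points passed an adjusted p of 0.05. The only filled points are Calb2 at -0.83 and Pvalb at -1.10, both in Cre-negative retinas.

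Pvalb codes for parvalbumin, a calcium buffer that marks AII amacrine cells in rat and that several ganglion cell types make in mouse. Pvalb read 2.79, 2.51, 2.51, 2.53 and 2.76 in Cre-positive crushed retinas and 2.94, 3.01, 2.85, 2.80 and 2.73 in Cre-positive uncrushed retinas. It read 1.77, 1.46 and 1.66 in Cre-negative crushed retinas and 2.65, 2.76, 2.51 and 3.00 in Cre-negative uncrushed retinas. The 3 Cre-negative crushed retinas stood apart below all 14 others, while the Cre-positive groups overlapped.

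Pvalb fell by 1.10 on the log2 scale with crush in Cre-negative retinas (SE 0.11, adjusted p = 4.9e-06 by limma), to 0.465 of the uncrushed level. In Cre-positive retinas the change was -0.24 ± 0.09 (SE, adjusted p = 0.37). The difference between these responses was 0.86 ± 0.14 (SE, adjusted p = 0.0044). It did not pass with Agilent's processed signals (0.78, adjusted p = 0.55) or with an offset of 10 (0.82, adjusted p = 0.079). Between crushed retinas Pvalb was 1.99-fold higher in Cre-positive than in Cre-negative (0.99 ± 0.10, SE, adjusted p = 1.5e-05), and between uncrushed retinas the difference was 0.13 ± 0.10 (adjusted p = 0.90).

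The 2 dyes show where the Pvalb change lay. The raw Cy5 intensity, which is the retina, was 679, 832 and 703 in Cre-negative crushed retinas and 3255.5, 2712, 2998 and 2913.5 in Cre-negative uncrushed retinas. The Cy3 intensity of the same spots, which should be the same RNA on every array, was 106.5, 183 and 109 in Cre-negative crushed and 276.5, 195.5, 259.5 and 197.5 in Cre-negative uncrushed retinas. These raw intensities are not normalized. The median Cy5 intensity of the whole array was also lower on Cre-negative crushed arrays, at 244.5 to 277 against 281 to 295 on Cre-negative uncrushed ones. At Pvalb both dyes were dimmer in crushed retinas, so the ratio shows a smaller change than the retina channel. Taken from the Cy5 channel alone, a setting added after this was seen, the change was -1.81 in Cre-negative (adjusted p = 2.3e-07) and -0.52 in Cre-positive retinas (adjusted p = 0.047), so that the Cre-positive change passed too. The difference between the responses was then 1.29 (adjusted p = 0.00085).

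**Figure D3:**
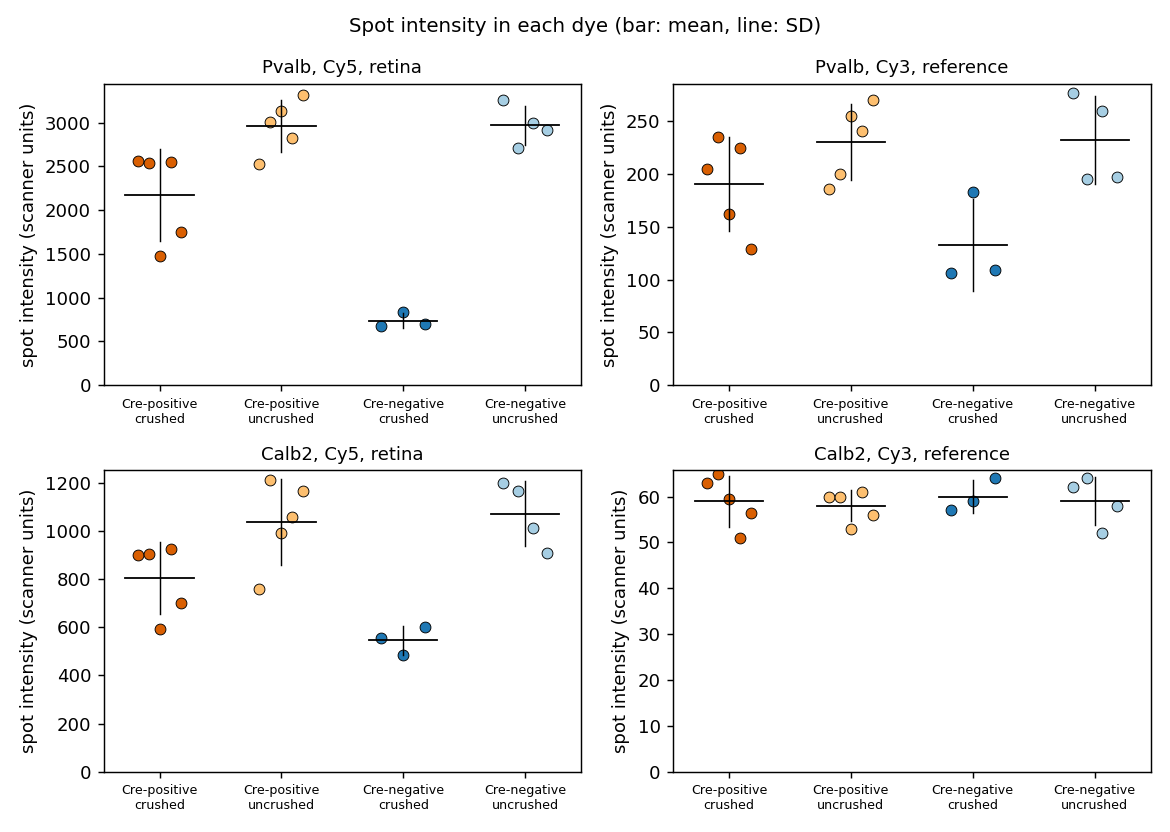
Raw spot intensity in scanner units (vertical axis, from 0) of Pvalb (top) and Calb2 (bottom) in Cy5, the retina, and Cy3, the reference, for each array of the 4 groups; bars are means and lines SDs. Pvalb's Cy5 mean is 738 in Cre-negative crushed and 2970 in Cre-negative uncrushed retinas and its Cy3 mean is 133 and 232, while Calb2's Cy3 means lie between 58.0 and 60.0.

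A second Pvalb probe fell further in Cre-negative retinas, and its Cre-positive change was smaller than that of the main probe. It changed by -1.71 with crush in Cre-negative retinas (adjusted p = 8.9e-09) and by -0.17 in Cre-positive retinas (adjusted p = 0.57), with a difference of 1.54 between them. Within single slides, where hybridisation and scan were shared, the crushed minus uncrushed difference of the main probe was -1.11, -1.23 and -1.05 in Cre-negative retinas. On the 4 slides with both Cre-positive groups it was -0.30, -0.18, -0.21 and -0.22. The Cre-positive difference was below 0 on every slide that held both groups, and with the slide as a fixed block it passed the test (-0.24, adjusted p = 0.025).

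There are 2 promoters in the RefSeq table for Pvalb, the gene that passed the most tests, and both are shown. They lie on the minus strand at chr15:78204238-78204487 and chr15:78206401-78206650. Neither holds any of the 3 motifs, so no letters are in capitals, which says nothing about the factors themselves. Of their bases 71.6% and 58.4% are G or C.
Pvalb, first: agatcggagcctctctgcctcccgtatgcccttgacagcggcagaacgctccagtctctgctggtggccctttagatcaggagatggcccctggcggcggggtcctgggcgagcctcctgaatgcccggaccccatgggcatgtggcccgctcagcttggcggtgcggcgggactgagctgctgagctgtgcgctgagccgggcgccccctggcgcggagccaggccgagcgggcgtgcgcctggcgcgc
Pvalb, second: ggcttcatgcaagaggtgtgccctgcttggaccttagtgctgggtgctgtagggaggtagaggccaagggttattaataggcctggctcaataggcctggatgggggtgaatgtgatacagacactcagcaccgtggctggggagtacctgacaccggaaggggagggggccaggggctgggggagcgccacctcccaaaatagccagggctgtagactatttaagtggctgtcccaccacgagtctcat

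Calb2 codes for calretinin, a calcium-binding protein of many amacrine cells and some ganglion cells. Calb2 read 2.74, 2.52, 2.34, 2.84 and 2.52 in Cre-positive crushed retinas and 2.49, 3.06, 3.17, 3.08 and 3.16 in Cre-positive uncrushed retinas. It read 2.25, 1.97 and 2.21 in Cre-negative crushed retinas and 3.06, 3.10, 2.85 and 2.89 in Cre-negative uncrushed retinas. The Cre-negative groups did not overlap, and a single low Cre-positive uncrushed retina fell among the crushed ones.

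Calb2 fell to 0.562 of the uncrushed level in Cre-negative retinas (-0.83 ± 0.14, SE, adjusted p = 0.0026). Its reference signal was well above background on 4 of 17 arrays, and the change was -0.95 with an offset of 10 (adjusted p = 0.016) and -1.11 with Agilent's processed signals, where it did not pass (adjusted p = 0.16). The change in Cre-positive retinas was -0.40 ± 0.12 (SE, adjusted p = 0.17). Without the low array, Cre-positive uncrushed replicate 1, the Cre-positive change was -0.53 and passed (adjusted p = 0.011). The difference between the responses did not pass in either case (0.43, adjusted p = 0.56 with it, and 0.30, adjusted p = 0.54 without it), so the Calb2 response was not shown to depend on Cre. Between crushed retinas Calb2 was 0.45 ± 0.14 higher in Cre-positive (SE, adjusted p = 0.14), which passed without that array (adjusted p = 0.035). That array is uncrushed and takes no part in this difference, which stayed at 0.45. Only its SE fell, to 0.10, because the groups share an estimate of spread. Within slides the Cre-negative differences were -0.89, -0.64 and -0.88, and the Cre-positive ones were -0.54, 0.02, -0.32 and -0.64. Averaged over genotypes, crush lowered Calb2 by 0.62 (adjusted p = 0.00048) and Pvalb by 0.67 (adjusted p = 9.3e-06), 2 of 32 members where 0.946% of all genes fell and 3.55% passed in either direction.

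**Figure D4:**
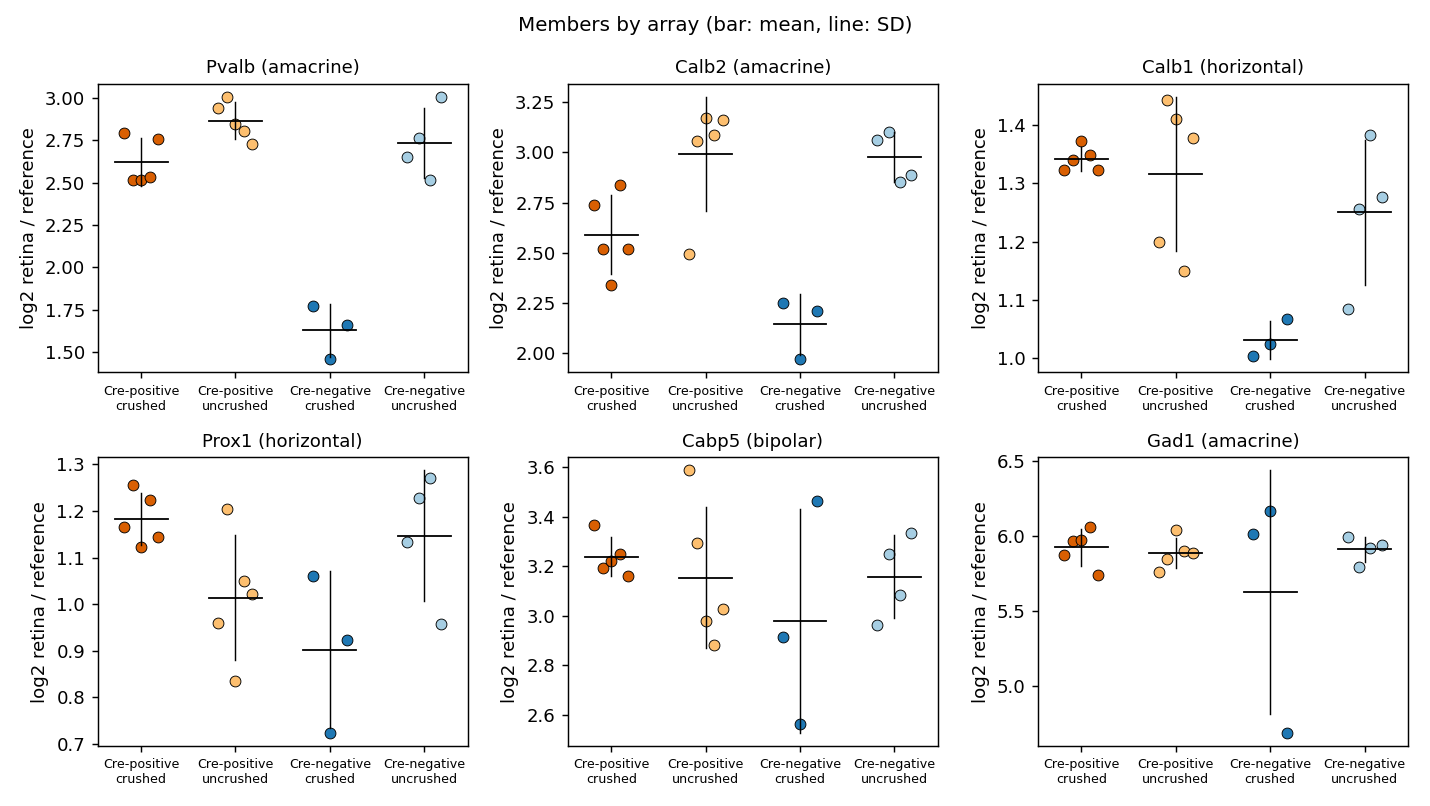
Log2 ratio of retina over reference (vertical axes, each with its own range) on every array for Pvalb, Calb2, Calb1, Prox1, Cabp5 and Gad1 in the 4 groups; bars are means and lines SDs. The 3 Cre-negative crushed retinas lie below all others for Pvalb, at 1.46 to 1.77, and a single array at 4.69 widens the Cre-negative crushed group of Gad1.

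The genes of inhibitory transmission did not pass the test in any contrast. Slc32a1, the vesicular transporter for GABA and glycine, ranged from 5.84 to 6.16 and Gad2, a GABA-synthesising enzyme, from 3.91 to 4.20. Slc6a9, the glycine transporter of glycinergic amacrine cells, ranged from 2.27 to 2.63. Gad1, the other GABA-synthesising enzyme, read 6.01, 6.17 and 4.69 in Cre-negative crushed retinas and 5.99, 5.79, 5.92 and 5.94 in Cre-negative uncrushed retinas. The low array, Cre-negative crushed replicate 3, set the sign of its change, which was -0.29 (adjusted p = 0.64) with it and 0.18 (adjusted p = 0.46) without it.

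Starburst amacrine cells release acetylcholine, and their 3 genes did not pass either. Chat, which makes acetylcholine, averaged 2.49 ± 0.21 in Cre-negative crushed (SD, n = 3) and 2.60 ± 0.18 in Cre-negative uncrushed retinas (n = 4). Slc18a3, which loads it into vesicles, ranged from 2.09 to 2.86 over the arrays and Slc5a7, the choline transporter, from 1.97 to 2.64. Th, which marks dopaminergic amacrine cells, ranged from 1.16 to 1.68. Slc18a2, the vesicular monoamine transporter, differed by -0.17 between Cre-positive and Cre-negative retinas over both conditions (adjusted p = 0.14).

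The amacrine factors and other markers did not pass either. Tfap2b, a transcription factor of amacrine cells whose reference signal was well above background on 1 of 17 arrays, averaged 6.66 ± 0.06 in Cre-negative crushed (SD, n = 3) and 6.73 ± 0.25 in Cre-negative uncrushed retinas (n = 4). Tfap2a, its relative, ranged from 1.17 to 1.57, though its second probe gave -0.33 with crush in Cre-negative retinas (adjusted p = 0.12). Slc17a8, a vesicular glutamate transporter in a glutamatergic amacrine type, ranged from 0.56 to 1.10. Gjd2, the gap junction protein connexin 36 of AII amacrine cells, ranged from 3.67 to 4.14, and Dab1, an adaptor of reelin signalling found in AII cells, from 0.41 to 0.67. Of the 11 members with several probes, 3 had probes of both signs after crush in Cre-negative retinas, none of which passed.

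In a second set of 25 amacrine genes 23 were tested. Of these 6 had an unadjusted p under 0.05 after crush in Cre-negative retinas, as did 3392 of all 25374 genes tested. After adjustment 1 of the 23 passed there, where 2.15% of all genes did. This was Tac1, the precursor of substance P, which rose by 0.47 ± 0.08 (SE, adjusted p = 0.0012). Averaged over genotypes Tac1 rose by 0.28 (adjusted p = 0.0017) and Ebf3, a factor of glycinergic amacrine cells, fell by 0.14 (adjusted p = 0.034), where 3.55% of all genes passed. In that average an unadjusted p under 0.05 was found for 7 of the 23 and for 3567 of all genes tested. None of the 23 passed in Cre-positive retinas, where the list's median change was -0.04, or in the difference between the responses.

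Ganglion cell markers moved with Pvalb and Calb2. Of 19 tested, 10 fell after crush in Cre-negative retinas, with a median of -0.53, where 204 of all 25374 genes tested fell. In Cre-positive retinas 3 of the 19 fell, with a median of -0.17, where 22 of all genes tested fell. The marker list was chosen with earlier results of these data known, so these counts are descriptions only. The mean level of the markers per array was 2.70 to 2.79 in Cre-positive crushed and 2.85 to 2.99 in Cre-positive uncrushed retinas. For Cre-negative retinas it was 2.16 to 2.23 after crush and 2.81 to 2.90 in the uncrushed eye. Pou4f2, a defining factor of these cells, averaged 2.66 ± 0.05 in Cre-negative crushed (SD, n = 3) and 4.43 ± 0.39 in Cre-negative uncrushed retinas (n = 4). The part of ganglion cells in the changes of Pvalb, Calb2, Calb1 and Ebf3 was not tested. Microglia genes rose after crush in both genotypes, 8 of 10 in Cre-positive and 4 of 10 in Cre-negative retinas. Of all 25374 genes tested 173 rose in Cre-positive and 341 in Cre-negative retinas. The part of microglia in these results was not tested.

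**Figure D5:**
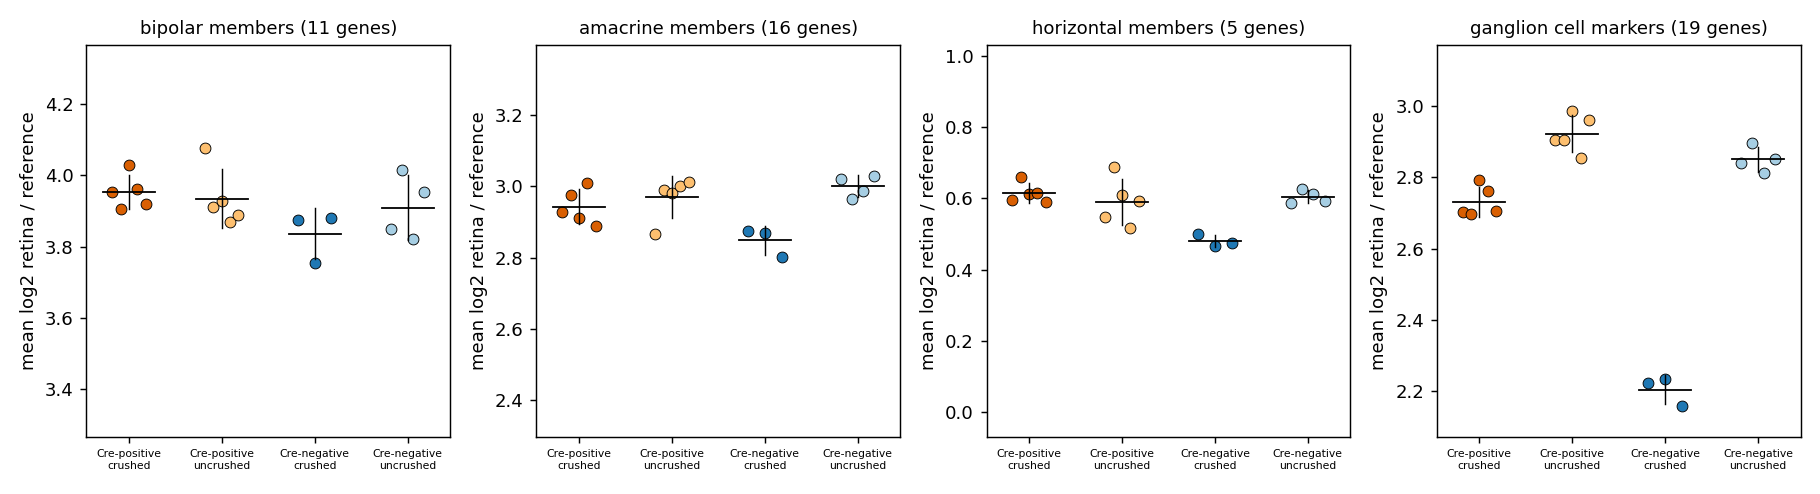
Mean log2 ratio of retina over reference per array (vertical axes, each with its own range of equal height) over the bipolar, amacrine and horizontal members that passed the filter and over 19 ganglion cell markers; bars are group means and lines SDs. The Cre-negative crushed arrays lie lowest for ganglion cell markers at 2.16 to 2.23 and for horizontal genes at 0.47 to 0.50, and bipolar arrays overlap between groups.

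Horizontal cell genes showed small differences. Calb1 codes for calbindin, a calcium buffer that marks horizontal cells in mouse and is also found in amacrine and ganglion cells. Calb1 read 1.32, 1.34, 1.37, 1.35 and 1.32 in Cre-positive crushed retinas and 1.20, 1.44, 1.41, 1.15 and 1.38 in Cre-positive uncrushed retinas. It read 1.00, 1.02 and 1.07 in Cre-negative crushed retinas and 1.08, 1.26, 1.38 and 1.28 in Cre-negative uncrushed retinas. The crushed groups of the genotypes did not overlap, the Cre-negative crushed arrays lay lowest of all, and the uncrushed groups overlapped.

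Between crushed retinas Calb1 was 1.24-fold higher in Cre-positive than in Cre-negative (0.31 ± 0.07, SE, adjusted p = 0.041). With Pvalb it made 2 of 32 members higher in that comparison, where 0.607% of all genes were higher and 1.15% passed in either direction. The Calb1 call was narrow. It held in 16 of 31 alternative settings, with estimates of 0.30 to 0.51 and adjusted p of 0.013 to 0.22, and it was lost with the slide as a fixed block (0.36, adjusted p = 0.12). Leaving out 1 array lost it in 11 of 17 cases, with adjusted p of 0.053 to 0.16, and those 11 included each of the 8 crushed arrays, Cre-positive uncrushed replicate 5 and Cre-negative uncrushed replicates 2 and 4. On the slides with both groups the difference was 0.26 and 0.32. Between crushed retinas 3521 of all 25374 genes tested had an unadjusted p under 0.05. Of 10 pigment epithelium genes 2 did and 0 passed after adjustment, with a median difference of 0.65. Their mean per array had a median of 2.39 and a maximum of 2.79 in Cre-positive crushed retinas and was 1.44 to 1.75 in Cre-negative crushed retinas. The groups overlapped through a single low Cre-positive array, and their part in the Calb1 difference was not tested. The crush change of Calb1 was 0.03 in Cre-positive (adjusted p = 0.93) and -0.22 in Cre-negative retinas (adjusted p = 0.18), and from the Cy5 channel alone the Cre-negative change was -0.30 and passed (adjusted p = 0.024).

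Prox1, a homeodomain factor of horizontal cells that AII amacrine and some bipolar cells also express, had the largest horizontal change in each genotype. Prox1 read 1.16, 1.26, 1.12, 1.22 and 1.14 in Cre-positive crushed retinas and 0.96, 1.20, 0.83, 1.05 and 1.02 in Cre-positive uncrushed retinas. It read 1.06, 0.72 and 0.92 in Cre-negative crushed retinas and 1.13, 1.23, 1.27 and 0.96 in Cre-negative uncrushed retinas. Crushed arrays were mostly the higher in Cre-positive and mostly the lower in Cre-negative retinas, with overlap in both. The changes were 0.17 ± 0.08 in Cre-positive (SE, adjusted p = 0.49) and -0.25 ± 0.09 in Cre-negative retinas (adjusted p = 0.23), and the difference of 0.41 ± 0.12 did not pass (adjusted p = 0.24).

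The remaining horizontal genes lay near the reference and did not pass in any contrast. Onecut2, a factor related to Onecut1, ranged from 0.46 to 0.65 over the arrays and Lhx1, a LIM homeodomain factor that positions horizontal cells, from -0.25 to 0.09. Gja10, the gap junction protein connexin 57 of horizontal cells, was well above background on 9 of 17 arrays and ranged from -0.01 to 0.28. All 5 intervals of the crush change lay within 0.5 log2 of 0 in both genotypes. All 5 changes were below 0 in Cre-negative retinas, against 49.4% of all genes, and the signs were not tested. The per-array mean of the 5 genes was 0.47 to 0.50 in crushed against 0.59 to 0.63 in uncrushed Cre-negative retinas. Calb1 and Prox1 had the largest of these falls, to 0.86 and 0.844 of the uncrushed level. Gja10, Lhx1 and Onecut2 lay at 0.954, 0.967 and 0.972 of it. For Calb1 and Prox1 the reference signal was well above background on 0 of 17 arrays. In Cre-positive retinas 2 of 5 changes were below 0, against 49.9% of all genes. Over the contrasts 1418 to 3567 of all 25374 genes tested had an unadjusted p under 0.05. Of a second set of 5 horizontal genes, 1 or 2 did in each contrast, and 0 passed after adjustment. Their median crush change was 0.05 in Cre-positive and 0.02 in Cre-negative retinas. Their per-array mean was 1.24 to 1.28 in crushed and 1.28 to 1.31 in uncrushed Cre-negative retinas, with overlap.

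Without injury Cre made no difference that passed among the members. Map3k12 itself did not pass in that comparison either (-0.43, adjusted p = 0.88 by limma). Between uncrushed retinas 0 of 32 members passed for Cre-positive over Cre-negative, where 0.0118% of all genes did. An unadjusted p under 0.05 was found for 3 members (Gpr179, Slc5a7 and Slc18a2) and for 1418 of all genes tested. All 32 intervals lay within 0.5 log2 of 0, against 96.6% of all genes. Averaged over both conditions 1 of 32, Pvalb, differed between genotypes (0.56, adjusted p = 0.00024), where 0.705% of all genes did. Over all 32 members the crush change was below 0 for 16 in Cre-positive retinas and for 25 in Cre-negative retinas, a share of 78.1% in Cre-negative against 49.4% of all genes tested.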

How the data were processed

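Whole-retina RNA was hybridised on 2-colour Agilent arrays. The deposited scanner files hold, per the file headers, median Cy5 and Cy3 intensities for every spot and its surroundings, not normalized. They also hold processed intensities and a deposited log10 ratio made by Agilent Feature Extraction 10.7.3.1. The authors' deposited value table was taken as a log2 ratio, because it correlated at 0.999 to 1 with the ratios computed here, with column medians of 0.015 to 0.0237. The submitters' processing notes name limma, and say nothing here of its centring or background correction.

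Here intensities were corrected by normexp with an offset of 50 and normalized by loess within arrays in limma 3.58.1 (R 4.3.3). The plan named mean spot signals, and the median was used. The offset pulls the ratios of dim spots toward 0. Each gene was represented by its brightest probe, and probes without a symbol were kept singly. Genes with Cy5 well above background on at least 3 arrays were kept, 25374 in all, and outlier spots were left out, giving 49 missing values. Of the 25374, 16793 had a symbol and 8581 were single probes without one. Every share of all genes tested includes these probes. A fit of 17 arrays with 4 group means gave 7 contrasts: crush in each genotype, their difference, Cre in each condition, and both averages. P-values were two-sided and adjusted by Benjamini-Hochberg over all genes, with a threshold of 0.05. Precision is limited by the number of arrays. The scripts were tested on simulated data.

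Members passing the threshold, and the largest crush change of each class, are given array by array. Of the companion genes, those that passed are named. The members and lists were chosen with earlier results of these data known. Of 18 arrays, 1 with disagreeing labels entered no comparison. The array header names another genome build than RefSeq's GRCm38.p6, so coordinates are given for RefSeq promoters only. Calb1, Calb2 and Onecut2 have no entry there. Alternatives were other background corrections, normalizations, filters, probe rules, the slide as a block, array weights, the deposited table and leaving out each array.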

Additional observations from a re-analysis of the deposited data

Results flagged for a closer look

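Among 96 pairs of a member and a group of 4 or 5 arrays, 4 held an array far from the others of its group, by its gap relative to the group's range. Chance flags about 1 in 20 groups. The Cre-negative crushed group, with 3 arrays, is too small for this comparison. In it Gad1 read 4.69 in replicate 3, against 6.01 and 6.17 in the others. Calb2 read 2.49 in Cre-positive uncrushed replicate 1, against 3.06 to 3.17 in the others. Grm6 read 6.84 in Cre-negative uncrushed replicate 2, against 6.63 to 6.66. In Cre-positive crushed replicate 3, Pcp2 read 4.45 against 4.24 to 4.30, and Gad2 read 4.20 against 3.96 to 4.01.

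The crush response of Pvalb differed between the genotypes, by 0.86 on the log2 scale for Cre-positive minus Cre-negative in the test of the difference itself (adjusted p = 0.0044 by limma). It did not pass with Agilent's processed signals (adjusted p = 0.55) or with an offset of 10 (adjusted p = 0.079).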

How the results depend on the processing

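In all 31 alternatives were run, 17 of them leaving out 1 array, and none turned the direction of a called change. Pvalb after crush in Cre-negative retinas passed in 31 of 31 (-1.81 to -0.94), and between crushed retinas in 31 of 31 (0.87 to 1.41). Calb2 after crush in Cre-negative retinas passed in 30 of 31, and was lost with Agilent's processed signals (-1.11, adjusted p = 0.16). The Pvalb difference between the responses was lost with processed signals (0.78, adjusted p = 0.55) and an offset of 10 (0.82, adjusted p = 0.079). The Calb1 call between crushed retinas was lost in 15 of 31.

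With processed signals the members called numbered 1 after crush in Cre-negative retinas, 0 for the difference, 1 between crushed retinas, 1 for the average crush effect and 0 for the average Cre effect. With an offset of 10 they numbered 0 for the difference and 1 between crushed retinas. With the slide as a fixed block they numbered 1 after crush in Cre-positive retinas and 1 between crushed retinas, and with no filter 1 between crushed retinas. With the Cy5 channel alone, added after seeing the data, 1 passed after crush in Cre-positive retinas. The average Cre effect called 2 with no background subtraction and 2 with array weights. Leaving out single arrays gave 0 to 1 members after crush in Cre-positive retinas, 2 in each case in Cre-negative retinas, 1 in each case for the difference, 1 to 3 between crushed retinas, 1 to 2 for the average Cre effect (2 without Cre-positive uncrushed replicate 4, which added Calb1) and 0 between uncrushed retinas. The cause of these changes was not tested. Slides shared a consensus correlation of 0.0645. No paired analysis was possible because the labels do not say which crushed and uncrushed retinas came from the same animal. The 6 members with Cy3 above background on fewer than 3 arrays have changes that the offset shrinks.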

Other observations

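The array whose title and description disagree on crush, from a Cre-negative retina, was placed in no group. It lay at position 4 of slide 5, an even position like those of the crushed arrays. On it Pvalb read 1.35, Calb2 2.50, Calb1 1.04 and Gad1 5.63. The mean over members was 3.66 for bipolar, 2.83 for amacrine and 0.51 for horizontal genes, and the ganglion cell markers averaged 2.17 and the lens genes 1.36.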
